A study of Mus musculus with 55 samples.

Results

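The genes described here are 10 members of the integrated stress response, chosen by name: Atf4, Ddit3, Trib3, Chac1, Ddit4, Asns, Psat1, Phgdh, Vldlr and Cebpb. Of these, 8 are listed in both pre-mRNA tables, among the 9574 genes that the tables share (9911 genes in CCNA-GFP and 10237 in CTCF-AID). Vldlr and Cebpb are in neither table, which hold genes that passed the authors' filter on low values and on curated RefSeq entries, and they were not analysed here.

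In the integrated stress response, kinases that sense endoplasmic reticulum stress, amino acid shortage, double-stranded RNA or haem deficiency phosphorylate the translation factor eIF2. General translation then falls while the mRNA of Atf4 is translated better, and the ATF4 protein activates genes for amino acid supply, redox control and, through CHOP, cell death. ATF4 binds, as a dimer with C/EBP factors, to a composite DNA element called CARE.

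The study followed how transcription restarts when mouse ES cells leave mitosis, and whether CTCF is needed for it. CCNA-GFP cells carry a GFP reporter of cyclin A and gave 19 libraries: 3 of asynchronous cells, 3 of mitotic cells, and pairs taken 20, 30, 40, 60, 90 and 120 min after release, with a single library at 50 min. CTCF-AID cells are 1 clone whose CTCF protein carries an auxin-inducible degron, and gave 36 libraries, 18 without and 18 with the auxin IAA; each arm holds 3 asynchronous and 3 mitotic libraries and pairs taken 20, 40, 50, 60, 90 and 120 min after release. Both lines derive from E14Tg2a and were grown in serum with LIF. Mitotic cells of both were obtained with the CDK1 inhibitor RO-3306 (10 µM, 4 h) and the spindle poison nocodazole (50 ng/ml, 4 h), drugs that asynchronous cells did not receive, followed by shake-off and release. IAA was at 0.5 mM, and in the synchronised cells it was added 2 h before release and kept on.

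The quantity measured was the TPM, an abundance scaled for transcript length and for the library total, of an unspliced pre-mRNA form of each gene. Where introns make up much of a gene, this form follows recent transcription. It is less distinct from mature mRNA where few bases are intron alone, as in Ddit4 (19%) and Atf4 (0%). The 2 tables were normalised separately, so levels of the 2 lines are set side by side without a test. Summed over all listed genes, TPM ran from 13747 to 17245 in CCNA-GFP mitotic libraries and from 30992 to 42576 at 60 min, and the median gene was higher at 60 min than in mitosis by 0.79 on the log2(TPM + 1) scale in CCNA-GFP, 0.64 in CTCF-AID without IAA and 0.63 with IAA. Changes are therefore set against that median where it bears on them. Of 10 ES cell markers, 9 are listed, with summed TPM from 35.6 to 151 over the libraries of both lines; none of 5 primitive endoderm markers is listed, the 3 of 6 fibroblast markers listed in CTCF-AID sum to 0.244 to 4.15 TPM, and of 7 germ layer markers 2 are listed in CCNA-GFP (0.141 to 2.05 TPM) and 3 in CTCF-AID (0.698 to 6.20 TPM). IAA removes the CTCF protein, which these data do not measure; Ctcf pre-mRNA was 7.26 ± 1.64 TPM without and 8.73 ± 1.89 TPM with IAA in asynchronous cells (SD, n = 3 each). In bulk RNA, fewer cells making a transcript and less transcript per cell cannot be told apart.

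The promoters were read first for the CARE letters TGATGNAA, on both strands (TTNCATCA on the other), in RefSeq windows of GRCm38.p6, the assembly that mm10 names, from 250 bases before to 50 after each start. Of 12 windows of the 10 members, 4 hold them, in Chac1, Trib3, Asns and Vldlr, against 3.97% of all 32817 windows. The 3 matches in measured genes are shown because they tell the members whose windows hold these letters from those whose windows do not, with the letters in capitals and each sequence in the direction of the gene.
Chac1, chr2:119351038-119351067, plus strand, element starting at base -193 from the RefSeq start: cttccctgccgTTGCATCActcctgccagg
Trib3, chr2:152344028-152344057, minus strand, element starting at base 15 after the RefSeq start and upstream of the GENCODE start: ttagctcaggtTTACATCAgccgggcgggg
Asns, chr6:7693214-7693243, minus strand, element starting at base -23, within the GENCODE gene: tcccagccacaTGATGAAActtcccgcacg

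Ddit3 and Ddit4 had the largest changes from mitosis of the 8 genes at 40 and 60 min on the log2(TPM + 1) scale. Their windows hold no TGATGNAA. Bases more than 250 before the start were not read, so this does not show that these genes lack the element. None of the 12 windows holds the cyclic AMP response element TGACGTCA, which 1.79% of all windows hold. The CCAAT box (CCAAT or ATTGG), the letters that the factor NF-Y binds, is in 7 of the 12 member windows, those of Atf4, Chac1, Ddit3, Ddit4, Phgdh, Psat1 and Vldlr, against 37.4% of all windows. The 150 bases upstream of both annotated starts of Ddit3 and Ddit4 are shown, since these genes had those largest changes from mitosis. CCAAT boxes are in capitals: 1 in Ddit3 and 2 in Ddit4.
Ddit3, chr10:127290624-127290773, plus strand: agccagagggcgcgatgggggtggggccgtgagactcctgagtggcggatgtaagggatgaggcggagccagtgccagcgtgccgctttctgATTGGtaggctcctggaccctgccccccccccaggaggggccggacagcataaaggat
Ddit4, chr10:59951835-59951984, minus strand: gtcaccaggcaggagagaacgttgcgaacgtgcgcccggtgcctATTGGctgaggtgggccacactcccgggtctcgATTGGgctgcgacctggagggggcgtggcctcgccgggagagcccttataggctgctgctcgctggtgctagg
These matches describe letters only, and binding was not measured.

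The first question is which of the 8 genes came back after mitosis, when, and how far. Ddit3 and Ddit4 rose in a sharp burst, and at 40 to 60 min they stood far above the level of asynchronous cells. Their log2(TPM + 1) changes from mitosis were at least 1.64, 2.20 and 2.46 at 40 min and 1.91, 1.80 and 2.07 at 60 min in CCNA-GFP, CTCF-AID without IAA and with IAA. The other 6 changed by at most 0.53, 0.74 and 0.81 at 40 min and 1.35, 1.09 and 1.09 at 60 min. This order belongs to that scale, which understates changes of low genes: as a ratio of mean TPM to mitosis, Phgdh at 60 min in CCNA-GFP was 5.73 times, against 5.63 for Ddit4 and 4.64 for Ddit3, and Atf4 with IAA reached 11.7 times at 50 min, with 2 of 3 mitotic libraries listed at 0. After the burst Ddit3 fell within 30 to 60 min, whereas Ddit4 was still high at 120 min in both lines. Bases that are intron alone make up 19% of Ddit4 and 68.9% of Ddit3. For Ddit4, lasting transcription and lasting mRNA are thus less well told apart, and this was not tested. Both genes were also lower in asynchronous than in mitotic libraries in all 3 replicates of each arm, the reverse of the other 6.

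**Figure D1:**
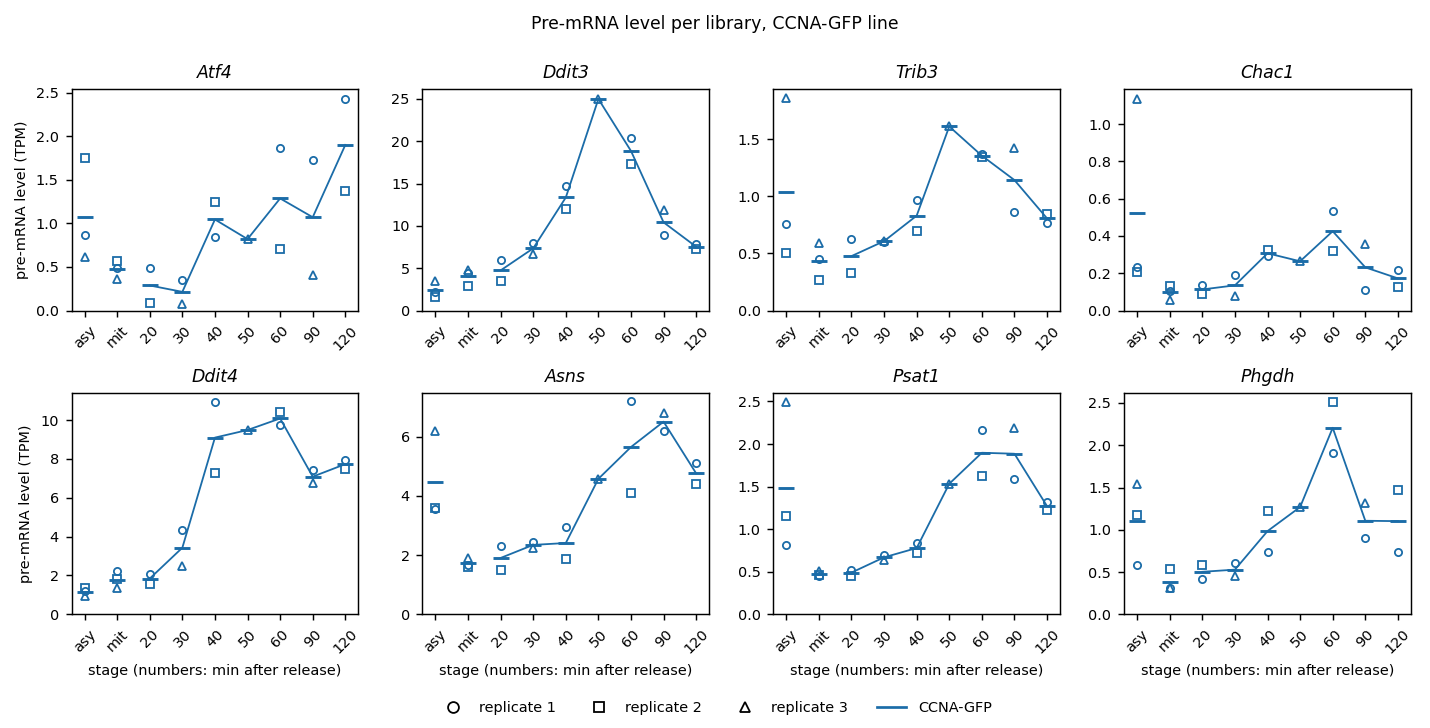
Pre-mRNA level in TPM (vertical axis, from 0, scaled per gene) of 8 genes in the 19 CCNA-GFP libraries, by stage. Symbols are libraries by replicate, horizontal ticks are stage means and the line joins the means from 20 to 120 min. Ddit3 is highest at 50 min, at 25.0 TPM in the only library, and Ddit4 at 60 min, with a mean of 10.1 TPM.

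Ddit3 (chr10:127290774-127296288, plus strand, in Gencode vM21) encodes CHOP, a C/EBP family factor that acts in cell death under prolonged stress. In CCNA-GFP cells it was at 4.46, 2.92 and 4.81 TPM in mitosis and at 2.18, 1.66 and 3.52 TPM in asynchronous cells (replicates 1 to 3). It reached 5.97 and 3.52 TPM at 20 min, 8.01 and 6.68 at 30 min, 14.7 and 12 at 40 min, 25.0 in the 50 min library and 20.4 and 17.3 at 60 min. It then stood at 8.98 and 11.9 TPM at 90 min and at 7.82 and 7.26 TPM at 120 min. From 30 min on, each library lay above all mitotic and asynchronous ones, and those at 40 to 60 min lay above those at 90 and 120 min, the lowest of the former (12 TPM) just above the highest of the latter (11.9 TPM).

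In CTCF-AID cells Ddit3 also rose and fell, and was near its top at 40 min and low again by 90 min. Without IAA, Ddit3 was at 2.50, 1.95 and 1.79 TPM in mitosis, 3.73 and 2.55 at 20 min, 16.2 and 15.9 at 40 min, 15 and 17.7 at 50 min and 9.0 and 13.0 at 60 min. It had fallen to 2.34 and 3.84 TPM at 90 min and 3.19 and 4.11 TPM at 120 min, against 1.51, 1.26 and 1.47 TPM in asynchronous cells. With IAA, it was at 2.15, 2.21 and 2.00 TPM in mitosis, 15.7 and 16.3 at 40 min, 17.9 and 17.5 at 50 min, 10.3 and 14 at 60 min and 2.65 and 3.38 at 120 min. In both arms the libraries at 40 to 60 min lay above all those of other stages.

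At its highest stage, 50 min, the mean of Ddit3 was 6.15 times the mitotic mean in CCNA-GFP (1 library), 7.86 times without IAA and 8.35 times with IAA; against asynchronous cells it was 10.2, 11.6 and 10.9 times. The fitted log2 fold change from mitosis, on the log2(TPM + 1) scale, was 1.64 ± 0.15 (SE) at 40 min in CCNA-GFP, 2.51 ± 0.18 without IAA and 2.46 ± 0.11 with IAA, with adjusted p of 1.6e-07, 3.4e-07 and 1.1e-09 by limma. At 40 min this put Ddit3 at rank 43 of 9911 genes in CCNA-GFP, rank 6 of 10237 without IAA and rank 12 with IAA, and 1.38, 2.17 and 2.17 above the median gene. At 90 min it was no further from mitosis than the median gene without IAA (log2 fold change 0.38, limma adjusted p = 0.071, median gene 0.39). In CCNA-GFP its mean at 90 min was still 10.4 TPM, against 4.06 TPM in mitosis. With IAA it was at 2.90 and 3.78 TPM at 90 min, above all mitotic libraries of that arm. From 60 to 120 min Ddit3 fell by 1.21, 1.35 and 1.70 on the log2 scale (limma adjusted p = 2.0e-05, 0.00012 and 4.8e-07), ranking 9873 of 9911, 10213 and 10228 of 10237 from the top. Gencode vM21 holds a second gene of the same symbol that overlaps Ddit3 over 2925 bases on the same strand. The authors counted reads on an earlier Gencode release, where this overlap was not checked. If it is there too, reads counted for Ddit3 are uncertain.

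Ddit4 (chr10:59949669-59951834, minus strand) encodes REDD1, an inhibitor of mTORC1. In CCNA-GFP cells it was at 2.23, 1.79 and 1.35 TPM in mitosis, 2.10 and 1.58 at 20 min, 4.36 and 2.50 at 30 min, 10.9 and 7.29 at 40 min, 9.49 in the 50 min library and 9.74 and 10.4 at 60 min. It stayed at 7.43 and 6.75 TPM at 90 min and 7.96 and 7.51 TPM at 120 min, against 1.19, 1.34 and 0.959 TPM in asynchronous cells. Every library from 30 min on lay above the mitotic and asynchronous ones, and the 90 and 120 min libraries overlapped those at 40 min.

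In CTCF-AID cells without IAA, Ddit4 rose from 2.11, 1.98 and 0.88 TPM in mitosis to 11.4 and 12.6 TPM at 40 min, and was at 6.52 and 12 at 60 min and 7.57 and 9.28 at 120 min. With IAA it went from 1.06, 2.06 and 1.19 TPM to 13.1 and 15.8 TPM at 40 min, 7.88 and 13.9 at 60 min and 7.11 and 9.47 at 120 min. The 60 and 120 min libraries thus overlapped in both arms. Mean levels at 120 min were 6.66 times those of asynchronous cells in CCNA-GFP, 7.98 times without IAA and 8.19 times with IAA; for Ddit3 these ratios were 3.08, 2.58 and 1.86.

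The fitted log2 fold change of Ddit4 from mitosis was 1.75, 2.20 and 2.55 at 40 min in CCNA-GFP, without IAA and with IAA, and 1.56, 1.73 and 1.81 at 120 min, where it ranked 175 of 9911, 57 of 10237 and 59 of 10237. Its change from 60 to 120 min did not pass the test in any arm (-0.34, -0.08 and -0.32; limma adjusted p = 0.079, 0.75 and 0.073). Ddit4 was also the only gene of the 8 called at 30 min, by a narrow margin (0.66 ± 0.14, limma adjusted p = 0.0497), where 0.303% of all genes were called higher. None of the 8 was called at 30 min with no replicate block or at equal totals, where 0% and 0.313% of all genes were called higher. Without replicate 2, 2 were, and the share over all genes is not given for that fit.

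**Figure D2:**
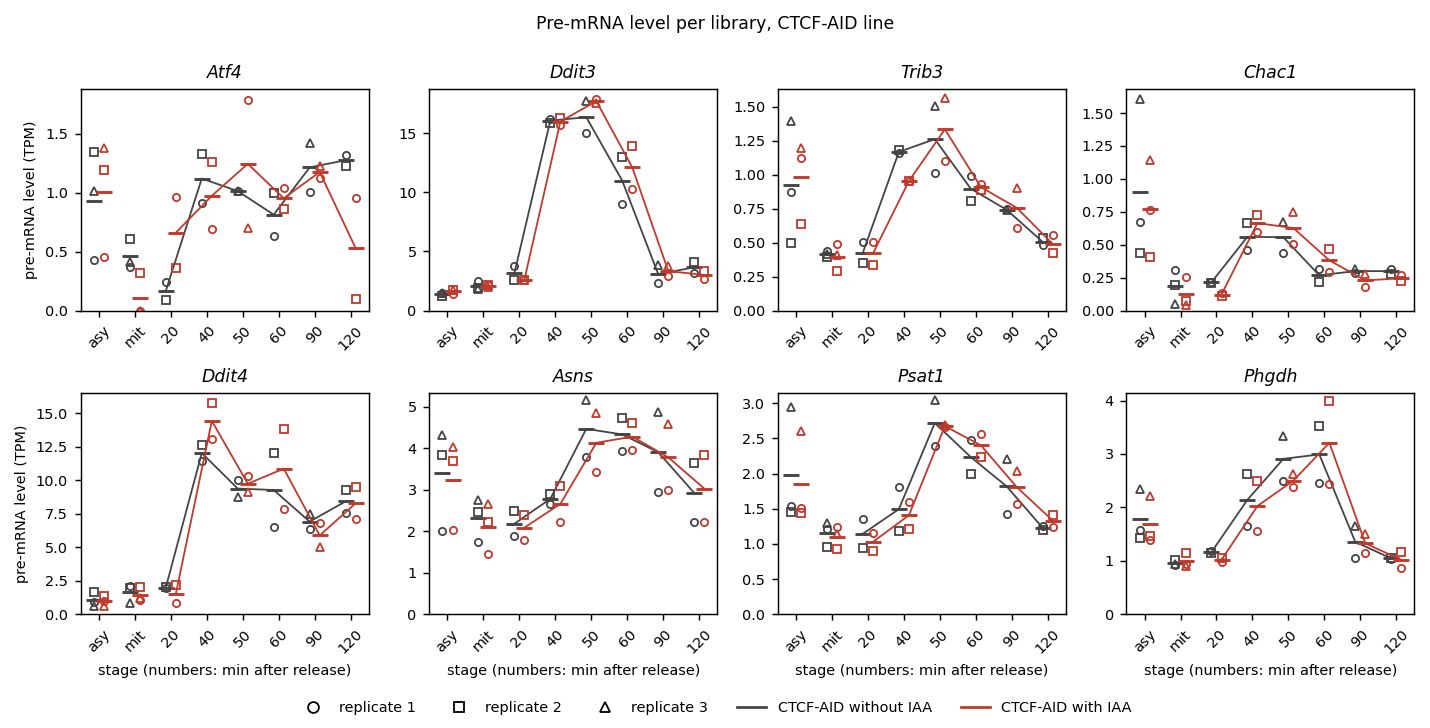
Pre-mRNA level in TPM (vertical axis, from 0, scaled per gene) of 8 genes in the 36 CTCF-AID libraries, by stage, without IAA (grey) and with IAA (red). Symbols are libraries by replicate, ticks are stage means and lines join the means from 20 to 120 min. The libraries of both arms overlap at most stages. At 90 min Ddit3 is at 2.34 to 3.84 TPM without and 2.90 to 3.78 TPM with IAA, against 1.79 to 2.50 and 2.00 to 2.21 TPM in mitosis. Ddit4 is then at 6.33 to 7.50 and 4.99 to 6.78 TPM.

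Atf4 (chr15:80255184-80257541, plus strand), the central factor of the response, did not exceed 2.42 TPM in any library. In CCNA-GFP cells it was at 0.488, 0.565 and 0.365 TPM in mitosis, 1.86 and 0.707 at 60 min, 2.42 and 1.38 at 120 min and 0.87, 1.75 and 0.61 in asynchronous cells. In CTCF-AID cells without IAA it was at 0.37, 0.61 and 0.414 TPM in mitosis, 0.63 and 0.998 at 60 min and 1.32 and 1.23 at 120 min. With IAA it is listed at 0 in mitotic replicates 1 and 3 and at 0.319 in replicate 2, and replicates at 120 min differed widely, with 0.958 and 0.0994 TPM.

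At 40 min Atf4 was called higher than in mitosis without IAA (0.54, limma adjusted p = 0.0043) and with IAA (0.81, limma adjusted p = 0.017), and not in CCNA-GFP (0.33, limma adjusted p = 0.20). At 60 min limma called the rise of Atf4 in CCNA-GFP (0.45, limma adjusted p = 0.046) and with IAA (0.81, limma adjusted p = 0.011). Without IAA it was not called (0.32, limma adjusted p = 0.052). At 60 min it lay 0.34 and 0.33 below the median gene in CCNA-GFP and without IAA and 0.18 above it with IAA. The CCNA-GFP call did not hold when every library was scaled to the same total (-0.16, limma adjusted p = 0.56). The call with IAA was also lost at equal totals. Without replicate 1, which leaves 1 library at 60 min in CCNA-GFP, the change there was -0.018. The exons of its transcripts in Gencode vM21 together cover all 2358 bases of the gene, so no base is intron alone, whereas such bases make up 19% of Ddit4, 68.9% of Ddit3 and 90.7% of Phgdh. Their part in the spread of Atf4 was not tested.

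Trib3 and Chac1 act downstream of ATF4 and CHOP and, like Asns, carry the CARE letters near their start. Trib3 (chr2:152337422-152344032, minus strand) encodes a pseudokinase that binds ATF4 and restrains it. It rose from 0.453, 0.266 and 0.59 TPM in mitosis to 1.37 and 1.34 TPM at 60 min in CCNA-GFP, and from 0.435, 0.391 and 0.414 to 1.16 and 1.18 TPM at 40 min without IAA. It passed the test at 40 min in all 3 arms (0.49, 0.70 and 0.56; limma adjusted p = 0.0027, 0.00011 and 6.7e-05), and by 120 min it was at 0.771 and 0.845 TPM in CCNA-GFP and at 0.479 and 0.531 TPM without IAA. Asynchronous libraries spread widely, from 0.507 to 1.86 TPM in CCNA-GFP, and overlapped the 60 min ones.

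Chac1 (chr2:119351229-119354381, plus strand), a glutathione-degrading enzyme, had the lowest mean of the 8 at 60 min in each arm. Its highest mean over all replicates was the asynchronous one in each arm, at 0.524 ± 0.528, 0.903 ± 0.619 and 0.772 ± 0.369 TPM (SD, n = 3). This rests on replicate 3, which was the highest each time and has no library at 40 or 60 min. In CCNA-GFP the authors' filter favours it too. Chac1 passed there only through its asynchronous mean, as its highest post-release stage mean was 0.425 TPM. Mitotic libraries held 0.045 to 0.304 TPM over both lines. After release Chac1 was highest at 60 min in CCNA-GFP, with 0.533 and 0.318 TPM, and at 40 min in CTCF-AID, with 0.458 and 0.663 TPM without IAA and 0.60 and 0.729 TPM with IAA. These levels overlapped the asynchronous libraries, and by 120 min they were at 0.125 to 0.319 TPM. In replicates 1 and 2 the asynchronous libraries held 0.232 and 0.207 TPM in CCNA-GFP, each below its 60 min library. They held 0.669 and 0.434 TPM without IAA and 0.767 and 0.405 TPM with IAA. In both of these arms replicate 1 lay above its 40 min library and replicate 2 below it.

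Asns, Psat1 and Phgdh supply amino acids: Asns makes asparagine, while Phgdh and Psat1 catalyse successive steps of serine synthesis. Asns (chr6:7675169-7693254, minus strand) rose in CCNA-GFP from 1.67, 1.59 and 1.88 TPM in mitosis to 7.19 and 4.10 TPM at 60 min and 6.20 and 6.80 TPM at 90 min, and was still at 5.10 and 4.41 TPM at 120 min, overlapping the asynchronous 3.57, 3.59 and 6.19 TPM. In CTCF-AID without IAA it went from 1.74, 2.47 and 2.74 TPM to 3.94 and 4.72 TPM at 60 min and 2.21 and 3.63 TPM at 120 min. Fitted from mitosis to 60 min, Asns rose by 1.35 ± 0.16 (SE) in CCNA-GFP, 0.81 ± 0.12 without IAA and 0.89 ± 0.10 with IAA; its later fall from 60 to 120 min was called in both CTCF-AID arms (-0.46 and -0.42) and not in CCNA-GFP (-0.17, limma adjusted p = 0.44).

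Phgdh (chr3:98313170-98339990, minus strand) had the clearest rise and fall of these 3 enzymes. It was at 0.314, 0.531 and 0.309 TPM in CCNA-GFP mitosis, 1.90 and 2.51 TPM at 60 min and 0.734 and 1.47 TPM at 120 min. Without IAA it went from 0.913, 1.03 and 0.932 TPM to 2.45 and 3.53 TPM at 60 min and back to 1.03 and 1.06 TPM at 120 min, next to the mitotic libraries. The 60 min libraries lay above the mitotic and 120 min ones in all 3 arms. From 60 to 120 min it fell by 0.63, 0.95 and 1.04 on the log2 scale (limma adjusted p = 0.0013, 0.0001 and 2.3e-05).

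Psat1 (chr19:15904678-15947337, minus strand) rose from 0.453, 0.465 and 0.506 TPM to 2.17 and 1.63 TPM at 60 min in CCNA-GFP and from 1.22, 0.952 and 1.29 TPM to 2.47 and 2.00 TPM without IAA. It was at 1.25 and 1.20 TPM at 120 min without IAA, within the mitotic range, and its fall from 60 min was called in both CTCF-AID arms (-0.53 and -0.54) and not in CCNA-GFP (-0.35, adjusted p = 0.085). Its changes stayed within 0.28 of the median gene at every post-mitotic stage.

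Counted over stages, the share of the 8 genes called higher is set beside that of all genes, most of which rose as transcription returned. At 20 min limma called 0 of 8 in each arm, as for all genes (0%), with 0, 2 and 0 at an unadjusted p under 0.05 in CCNA-GFP, without IAA and with IAA; the fit without the replicate block also called 0. At 40 min 6, 8 and 8 of 8 were higher than in mitosis, where 49.3%, 62.4% and 55.5% of all genes were. At 50 min 7 and 8 of 8 were called higher without and with IAA (all genes 78.1% and 77.5%). At 60 min the counts were 8, 6 and 8 of 8 (88.3%, 84.2% and 80.6%), at 90 min 7, 4 and 6 (89.1%, 71.9% and 72.6%) and at 120 min 7, 4 and 3 (90.2%, 68.1% and 64.9%). At 90 min 2 were called without IAA and 3 with IAA when replicate 3 was left out (45% and 49.1% of all genes), and 2 without IAA with no replicate block (60.8%). With no replicate block the counts at 40 min were 2, 5 and 6 (23.8%, 40.4% and 39.9% of all genes), and at equal totals 3, 4 and 4 (23.7%, 31.8% and 32.5%). Without replicate 1 they were 4 in CCNA-GFP and 5 without IAA (26.4% and 40.1%), and without replicate 2 that at 120 min was 2 without IAA (45.9%). The median log2 fold change of the 8 at 60 min was 1.15, 0.76 and 0.85, against 0.79, 0.64 and 0.63 over all genes. Scaling each library to the same total left 5, 3 and 3 of 8 called higher at 60 min, where 36.4%, 37.9% and 39.7% of all genes were, and Ddit3, Ddit4 and Phgdh were among them in each arm.

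**Figure D3:**
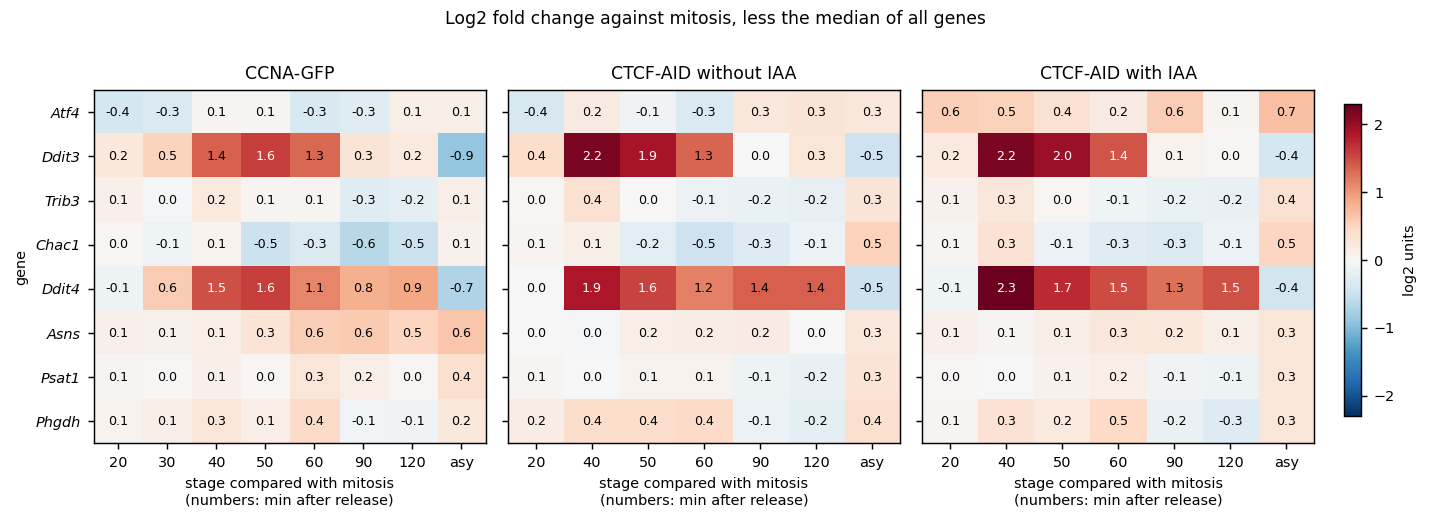
Log2 fold change against mitosis of each gene (rows) at each stage (columns), less the median of all listed genes at that stage, in log2 units on the log2(TPM + 1) scale; red is above and blue below the median. Ddit3 and Ddit4 stand 1.1 to 2.3 above the median from 40 to 60 min; the 50 min column of CCNA-GFP rests on 1 library.

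From 60 to 120 min limma called 3 of 8 lower in CCNA-GFP (Ddit3, Trib3 and Phgdh), where 28.5% of all genes were, and 5 of 8 in each CTCF-AID arm (these 3, Asns and Psat1), where 51.1% without and 48.7% with IAA were. None of the 8 was called higher, where 9.6%, 6.4% and 6.64% of all genes were; at an unadjusted p under 0.05 limma had 0, 1 and 0 of 8 higher, and the fit without the replicate block also called 0. The 1 was Atf4 without IAA, which was called higher at equal totals (0.50, limma adjusted p = 0.046), where 22.4% of all genes were. Without replicate 2 it was called as well (0.51, limma adjusted p = 0.018), but each stage then holds 1 library and the spread comes from the other stages. Without replicate 1 or 2 both stages hold 1 library in CCNA-GFP. The median change of the 8 was then -0.29 and -0.42, against 0.043 and -0.26 over all genes. Without replicate 3 limma called 5 of 8 lower in CCNA-GFP, with a median of -0.34 against -0.11. In cells without IAA the median without replicate 1 was -0.32 against -0.23. The share of all genes called lower is not given for these fits. Under scaling to the same total the falls of Ddit3 and Phgdh were still called in all 3 arms, where 21.7%, 23.7% and 26.4% of all genes were called lower, while the difference of Ddit4 turned positive, without a call, in both CTCF-AID arms (0.28 and 0.037).

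Asynchronous cells differed from mitotic ones in both directions. Atf4, Trib3, Chac1, Asns, Psat1 and Phgdh were higher in asynchronous cells in 3 of 3 replicates of every arm. They were called higher in each arm, which makes 6 of 8 in each. Of all genes 70.4% in CCNA-GFP, 30.7% without IAA and 37.6% with IAA were called higher. The authors' filter could admit a gene through its asynchronous level but not its mitotic one, which favours such differences. Chac1 in CCNA-GFP passed only that way (asynchronous mean 0.524 TPM), so its higher call there was favoured by the filter. Ddit3 and Ddit4 were lower in 3 of 3 replicates of every arm. In CCNA-GFP both falls were called (-0.57 and -0.36; limma adjusted p = 0.00099 and 0.014), where 1.97% of all genes were called lower. Without IAA neither was (-0.35 and -0.37; adjusted p = 0.11 and 0.082; 4.48% of all genes), and with IAA only Ddit3 was, barely (-0.25, adjusted p = 0.049; Ddit4 -0.27, adjusted p = 0.075; 4.97% of all genes). With each library scaled to the same total 3, 4 and 6 of 8 were called higher (24.8%, 23.9% and 29.2% of all genes), and with no replicate block 5, 1 and 4 (46.7%, 6.96% and 16.7%). At equal totals both Ddit3 and Ddit4 were called lower in all 3 arms, where 20.3%, 18.9% and 22% of all genes were. Dividing each library by its scaling factor left CCNA-GFP with 1 lower call and CTCF-AID with none. Lower calls were 1 without replicate 1 in CCNA-GFP, 1 without replicate 2 in cells without IAA, and 0 without replicate 2 or 3 in cells with IAA. For these fits and for division by the scaling factor, the share of all genes called lower is not given. Higher calls without IAA were 2, 4 and 1 without replicates 1, 2 and 3, where 6.54%, 24.8% and 13% of all genes were, and with IAA 3 without replicate 3, where 20.7% were.

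The next question was whether loss of CTCF changed these courses. No effect of IAA on any of the 8 genes was called by limma at any stage, in the mean after release or between that mean and asynchronous cells, with or without a replicate block. Over 64 pairs of gene and stage the log2 fold change, with over without IAA, ran from -0.63 to 0.49, both in Atf4, and 1 had an unadjusted p under 0.05, Atf4 at 120 min (-0.63, 95% interval -1.18 to -0.09). In the fit without a block, 0% of all genes were called in mitosis and at 20 and 40 min, 0.283% and 0.225% at 50 and 60 min and 0.733% and 0.586% at 90 and 120 min. The shares were 1.01% in asynchronous cells, 1.72% in the mean after release and 0.00977% in the difference from asynchronous cells. In that fit 0 of 8 does not set these genes apart. The authors, who tested counts with DESeq2, reported a subset of genes that respond to CTCF loss early after release. Whether any of the 8 is among them is not given here. Where 0% of all genes were called, the fit on TPM does not show that CTCF loss had no early effect. The share over all genes with a block is not given.

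The intervals of these differences, from the fit without a block, were as follows. In the mean after release the difference was -0.0077 for Ddit3 (95% interval -0.16 to 0.15), -0.0040 for Ddit4 (-0.25 to 0.25), -0.0085 for Atf4 (-0.23 to 0.21), -0.045 for Phgdh (-0.21 to 0.12) and -0.034 for Asns (-0.27 to 0.21). Since same-numbered libraries of both arms deviate together, the fit with a replicate block narrowed most of them, to -0.15 to 0.15 for Ddit4 and -0.13 to 0.062 for Asns, while that of Atf4 was -0.23 to 0.22. At single stages the intervals were wider, as for Ddit4 at 40 min (0.24, -0.37 to 0.85; with a block -0.13 to 0.60), where it was higher with IAA in both replicates, and Ddit3 at 120 min (-0.21, -0.59 to 0.17). In mitosis Atf4 was -0.41 (-0.86 to 0.03), where the 2 libraries listed at 0 lie. The change of the IAA effect from asynchronous cells to the mean after release was -0.13 for Ddit3 (-0.47 to 0.22) and 0.011 for Ddit4 (-0.55 to 0.57).

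**Figure D4:**
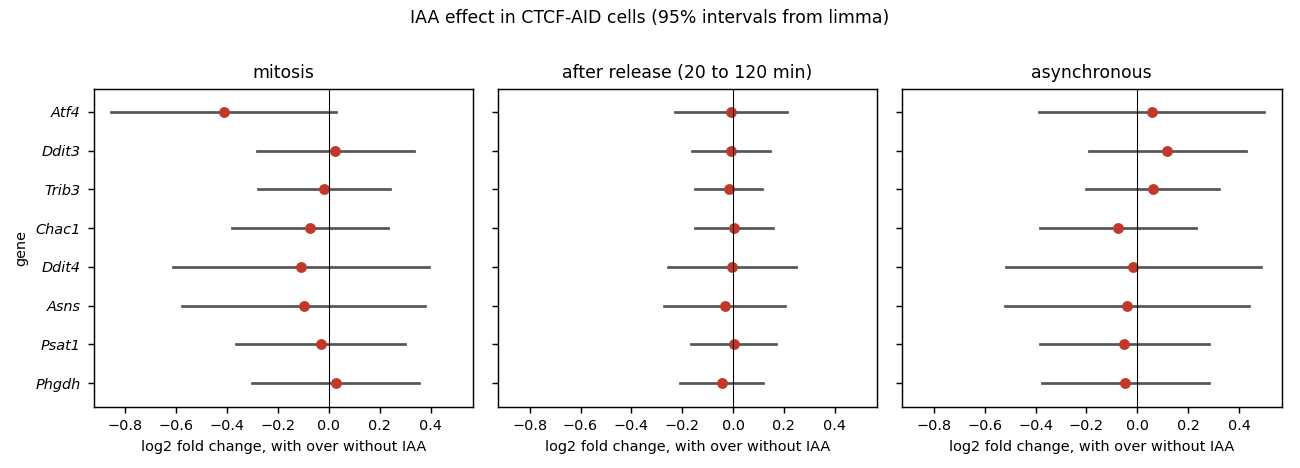
Log2 fold change of pre-mRNA with over without IAA (horizontal axis, log2(TPM + 1) scale) in mitosis, in the mean of 20 to 120 min after release and in asynchronous CTCF-AID cells, for 8 genes. Points are limma estimates and lines 95% intervals; after release all intervals lie between -0.27 and 0.25.

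Levels of the genes relative to each other also moved. In CCNA-GFP asynchronous cells Asns (4.45 ± 1.51 TPM, SD, n = 3) and Ddit3 (2.45 ± 0.959) had the highest means, then Psat1 (1.49 ± 0.892), and Ddit4, Phgdh, Atf4 and Trib3, from 1.16 ± 0.19 to 1.04 ± 0.721 TPM, could not be ordered beyond their spread; Chac1 had the lowest mean. At 60 min Ddit3 (18.8 ± 2.20 TPM, SD, n = 2) and Ddit4 (10.1 ± 0.487) led Asns (5.65 ± 2.18), Phgdh (2.21 ± 0.43), Psat1 (1.90 ± 0.384), Trib3 (1.36 ± 0.019), Atf4 (1.29 ± 0.818) and Chac1 (0.425 ± 0.152). TPM are scaled per length, but the small share of bases that are intron alone in Atf4 and Ddit4 limits how far these levels can be set against each other. The overlap at Ddit3 in Gencode vM21 may limit this as well. At 60 min Phgdh and Psat1 lay within each other's spread, and Trib3 lay within that of Atf4, whose libraries fell on either side of it.

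Likeness of course was measured by Pearson's r of the stage means, on the log2(TPM + 1) scale and less the median gene of each stage, over the 9 stages of CCNA-GFP and the 16 combinations of stage and arm of CTCF-AID; the points share libraries and are given as a description. Ddit3 and Ddit4 were alike in both (r = 0.87 and 0.75), as were Trib3 and Chac1 (0.68 and 0.88) and Asns and Psat1 (0.69 and 0.76). Ddit4 and Psat1 ran opposite (-0.50 and -0.69). This scale understates changes of low genes, so subtracting the median gives each of them, in part, its inverse course. Part of the likeness of low genes such as Trib3 and Chac1 can therefore come from the measure, which was not tested. Atf4 followed neither Ddit3 (-0.38 and -0.22) nor Asns (-0.08 and 0.13). Over the 28 pairs the median r was -0.04 in CCNA-GFP and 0.15 in CTCF-AID. Among all CTCF-AID genes those most like Ddit3 were Cuta (0.991), Ctsb (0.991) and Tlcd2 (0.988), those most like Asns were Zfp946 (0.912), Nsun6 (0.905) and Clcn3 (0.885), and those most like Atf4 were Bloc1s1 (0.76), 6330418K02Rik (0.708) and Rps13 (0.668).

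A set of 3 lists gives the surrounding pathways. Of 17 regulators of eIF2 (its kinases, phosphatases, subunits and exchange factor), 13 are listed; at 60 min 12 of 13 were called higher than in mitosis in CCNA-GFP and 9 of 13 in each CTCF-AID arm, where 88.3%, 84.2% and 80.6% of all genes were. The median changes were 0.90, 0.68 and 0.60, against 0.79, 0.64 and 0.63 over all genes. Ppp1r15b and Ppp1r15a, the subunits that direct a phosphatase to eIF2, rose by 1.94 and 1.61 in CCNA-GFP. Eif2b4, a subunit of the exchange factor, rose by 1.59. These 3 were picked for the largest called changes of the list in that same comparison, so their sizes do not stand for the list. Ppp1r15a went from 0.662 ± 0.0972 TPM (SD, n = 3) in mitosis to 4.28 ± 0.404 TPM (n = 2) at 60 min, and from 0.598 ± 0.0808 to 4.33 ± 0.31 TPM without IAA.

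Of 27 other targets of ATF4 and CHOP 21 are listed, and 19, 21 and 20 of them were called higher at 60 min in CCNA-GFP, without IAA and with IAA, where 88.3%, 84.2% and 80.6% of all genes were. Their median changes were 0.95, 0.87 and 0.91, against 0.79, 0.64 and 0.63 over all genes. The amino acid transporters Slc7a5 and Slc1a5 rose by 2.41 and 2.08 in CCNA-GFP and Sesn2, which restrains mTORC1, by 2.05. They were picked for the largest called changes of the list there and do not stand for it. Slc7a5 went from 1.55 ± 0.398 TPM in mitosis to 11.1 ± 3.50 TPM at 60 min and 5.19 ± 0.49 TPM at 120 min, and its fall from 60 to 120 min was called in all 3 arms (-0.93, -1.19 and -1.12). From 60 to 120 min 13, 15 and 15 of the 21 were called lower, where 28.5%, 51.1% and 48.7% of all genes were.

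Of 21 genes of the ATF6 and XBP1 branches of the unfolded protein response, which run beside the PERK and ATF4 branch, 20 are listed. All 20 were called higher at 60 min in each arm, where 88.3%, 84.2% and 80.6% of all genes were, with medians of 1.39, 0.95 and 1.01 against 0.79, 0.64 and 0.63 over all genes. From 60 to 120 min 18, 19 and 19 of 20 were called lower, where 28.5%, 51.1% and 48.7% of all genes were. Creld2, Sdf2l1 and Hspa5, the chaperone BiP, rose by 2.12, 1.83 and 1.81 in CCNA-GFP, and were likewise picked for the largest called changes of their list there. Hspa5 went from 2.45 ± 0.0246 TPM (SD, n = 3) in mitosis to 11 ± 1.61 TPM (n = 2) at 60 min and 5.53 ± 0.666 TPM at 120 min, against 5.34 ± 0.15 TPM in asynchronous cells. No gene of the 3 lists was called for IAA in the mean after release or in asynchronous cells.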

How the data were processed

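Total RNA of 19 CCNA-GFP and 36 CTCF-AID libraries was ribo-depleted and sequenced stranded and paired-end. The authors used STAR to align reads to mm10 and RSEM to estimate abundance, on a Gencode annotation extended by a pre-mRNA form of each gene. The deposited values are TPM of that form, for genes in the curated RefSeq set above 0.5 TPM in asynchronous or at least 2 post-mitotic samples. Each library's values are multiples of a step that implies a further scaling, by 1.84 to 3.81, that is not named in the sources used here. TPM keep no read counts, so depth is unknown, no counting interval can be given, and differences are judged against replicates.

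Columns were assigned by header; those of asynchronous CTCF-AID libraries are garbled in the stage only, and were read as the one stage of that arm and replicate that no other header names. No column was left unused (0). Replicates were independent experiments: replicate 1 covers all times but 50 min in CCNA-GFP, and the others some of them. The numbers pair libraries: deviations from stage means correlated at 0.71 in CCNA-GFP and at 0.66 to 0.87 in CTCF-AID between stages sharing 3 numbers. No library copied another (Spearman's rho between replicates 0.918 to 0.984, 0% of values above 0 identical).

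limma 3.58.1 in R 4.3.3 (lmFit, eBayes with trend) was run on log2(TPM + 1), with Benjamini-Hochberg adjustment over all genes of a table. Within an arm, stages were compared with mitosis, blocking on replicate, and called at an adjusted p under 0.05. The lone 50 min CCNA-GFP library got no call. The IAA contrasts used all 36 CTCF-AID libraries and no block, and a call needed an adjusted p under 0.1 with a log2 difference beyond 0.2 in either direction. Fold changes on this scale understate those of low genes. DESeq2, which the authors used on counts, does not suit TPM. Alternatives were another block setting, a pseudocount of 0.1, a mean TPM of at least 1, equal totals, division by the scaling factor, and leaving out each replicate.

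The members, lists and tests were chosen with earlier results of these data known. Named genes are the members, Ctcf, from each of 3 pathway lists the 3 called genes with the largest change at 60 min in CCNA-GFP in the same direction in both replicates, and the 3 genes most like Atf4, Ddit3 and Asns. Positions are from Gencode vM21 on GRCm38; promoters are RefSeq windows of GRCm38.p6. Python 3.11.15 was used for tables.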

Additional observations from a re-analysis of the deposited data

Results flagged for a closer look

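Of 24 pairs of gene and contrast compared between the lines (asynchronous against mitosis, 60 min against mitosis, 120 against 60 min), 1 went in opposite directions in every replicate as deposited. Chac1 changed from 60 to 120 min by -0.253 TPM in the mean of CCNA-GFP replicates and by 0.0325 TPM in CTCF-AID without IAA. Divided by the scaling factors of the libraries, the replicates without IAA went from 0.14 to 0.14 and from 0.09 to 0.10, so that replicate 1 holds no direction of its own. With IAA Chac1 was lower at 120 min in both replicates, at 0.295 and 0.468 TPM at 60 min and 0.267 and 0.224 TPM at 120 min. The difference between the lines was not tested because the tables were normalised separately.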

How the results depend on the processing

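Counts of the 8 genes called depended on the scaling and on the block; none of the 8 was called for IAA under any alternative, the replicate block included (0). With each library scaled to the same total, calls higher than in mitosis in CCNA-GFP, without IAA and with IAA were 3, 4 and 4 at 40 min, 5, 3 and 3 at 60 min, 3, 1 and 2 at 90 min and 2, 1 and 1 at 120 min, 3 in both CTCF-AID arms at 50 min and 0 at 30 min in CCNA-GFP; calls lower from 60 to 120 min were 3 and 3 in the CTCF-AID arms and calls higher 1 without IAA, asynchronous calls higher 3 in CCNA-GFP, and asynchronous calls lower 2 in each CTCF-AID arm. Over all genes the shares called higher at equal totals were 31.8%, 31.6% and 35.8% at 90 min, 28.7%, 29.3% and 32.7% at 120 min, 39.2% and 40.1% at 50 min and 0.313% at 30 min. With no replicate block, 0 were higher at 30 min and 2 at 40 min in CCNA-GFP, 5 at 40 min and 2 at 90 min without IAA, 2 and 3 were lower from 60 to 120 min without and with IAA, 1 was higher in asynchronous cells without IAA, and 1 and 0 were lower there in CCNA-GFP and with IAA. A mean TPM of at least 1 kept only 4 of the 8 genes in CCNA-GFP and 5 in each CTCF-AID arm; 2 were then called higher at 30 min and 4 at 60, 90 and 120 min in CCNA-GFP, 5 at 40 min in both CTCF-AID arms, 5 at 50 and 60 min with IAA, 2, 3 and 3 in asynchronous cells, and 0 lower there with IAA. A pseudocount of 0.1 gave 1 and 2 lower calls in asynchronous cells without and with IAA, and division by the scaling factor 1 in CCNA-GFP and 0 with IAA, and 2 higher calls at 30 min in CCNA-GFP. Shares over all genes are not given for the filter, the pseudocount or the scaling factor, nor for lower calls with no replicate block. These counts are therefore not set against the whole table. With the filter the median change at 60 min was 1.63, 1.09 and 1.09, against 0.97, 0.75 and 0.73 over all genes kept.

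With a replicate left out, most stages after release hold 1 library in at least some fits, which is then taken to vary like the others. For the counts that follow, no share over all genes is given here, and they show only how far the counts move. The count from 60 to 120 min ran from 1 to 5 in CCNA-GFP and from 2 to 5 without IAA. At 40 min it ran from 4 to 7 in CCNA-GFP and from 5 to 7 without IAA, at 120 min from 2 to 4 without IAA, at 30 min from 0 to 2 in CCNA-GFP, and at 90 min from 2 to 6 without and 3 to 7 with IAA. Calls higher from 60 to 120 min ran from 0 to 1 without IAA. Asynchronous calls higher ran from 1 to 4 without IAA and from 3 to 6 with IAA, and those lower from 1 to 2 in CCNA-GFP, 0 to 1 without IAA and 0 to 1 with IAA. Atf4 at 60 min in CCNA-GFP reversed to -0.16 at equal totals and ran from -0.018 to 0.81 with a replicate left out; the cause was not tested. Depth is unknown, and 2 libraries at most stages limit the precision, above all for genes near 0.5 TPM.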
